A study of Mus musculus with 12 samples.

Results

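Costimulatory receptors were taken as 6 genes of the TNF receptor and CD28 families, and their members are Tnfrsf9, Tnfrsf4, Tnfrsf18, Cd27, Cd28 and Icos. They were found by gene name in a table of 26962 mouse genes, where each name had 1 row, and all 6 passed the filter on low values that kept 16065 genes for testing. The members were named by gene family, with no cutoff on the measured values. They were, however, chosen with earlier results of these data known. The cells were CD8 T cells stained with Rpl18 tetramer, which is held by T-cell receptors that recognize a ribosomal protein L18 antigen of MC38, and MC38 is a mouse colon carcinoma line. They were sorted on day 10 after MC38 injection from the tumor or from the tumor-draining lymph node (TDLN). The mice were wild type (WT) or had a knockout (KO) of TrIP restricted to CD8 cells. The 4 groups of 3 libraries were WT TDLN (replicates 1, 3 and 4), KO TDLN (replicates 1, 2 and 3), WT tumor (replicates 1, 3 and 4) and KO tumor (replicates 1, 2 and 3). All groups shared the MC38 tumor, the day and the sort, and none of the 12 libraries is labelled as from a tumor-free mouse or from tetramer-negative cells. The labels give no Cre driver, age or sex, and do not say whether animals were pooled or whether a replicate is 1 mouse, so the p-values below measure the spread between these libraries.

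TrIP is the transmembrane inhibitor of PI3K encoded by Pik3ip1, and its transcript did not separate the genotypes. In TDLN it stood at 607.0, 1095 and 834.2 normalized counts in the WT libraries, against 854.2, 1009 and 1573 in those of KO. In tumor it stood at 179.1, 118.8 and 137.7 in WT, against 173.3, 95.2 and 55.5 in KO. The genotypes overlapped in both tissues, so KO names the label of a library throughout. Which part of the gene the knockout removes is not given in the labels, so its total transcript level does not check them.

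A naive T cell needs a second signal beside its antigen receptor, and costimulatory receptors carry it. CD28, the receptor for CD80 and CD86, is present on resting T cells, and its relative ICOS, the receptor for ICOS ligand, appears after activation; both recruit PI3K through motifs in their cytoplasmic tails. CD27, the receptor for CD70, is also present on resting T cells, whereas 4-1BB (Tnfrsf9), OX40 (Tnfrsf4) and GITR (Tnfrsf18) are induced by antigen receptor signals and bind 4-1BB ligand, OX40 ligand and GITR ligand. These TNF receptors recruit TRAF adaptor proteins and activate NF-kB, and all 3 inducible ones have been targeted with agonist antibodies in tumor models.

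The members lie at 3 places in the genome. In GENCODE M21 (build GRCm38) Tnfrsf9 (ENSMUSG00000028965) spans chr4:150914562-150946102 on the plus strand, Tnfrsf4 (ENSMUSG00000029075) spans chr4:156013843-156016612 and Tnfrsf18 (ENSMUSG00000041954) spans chr4:156026164-156028895, both on the plus strand. Only 9.55 kb separates the end of Tnfrsf4 from the start of Tnfrsf18. Cd28 (ENSMUSG00000026012) at chr1:60716800-60773359 and Icos (ENSMUSG00000026009) at chr1:60977927-61000320 lie on the plus strand of chromosome 1 with Ctla4, which encodes the inhibitory receptor for the CD28 ligands, between them. From the start of Cd28 to the end of Icos is 283.5 kb. Cd27 (ENSMUSG00000030336) lies apart from the other members at chr6:125232622-125237010 on the minus strand. The annotation behind the deposited table is not given in the sources used here, and its gene versions are 1 higher than those of GENCODE M21, so coordinates and exon lengths come from GENCODE M21 and not from the table.

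Promoter sequences were read for the TNF receptor members, since RefSeq (GRCm38.p6) gave windows for these 4 of the 6 members and none for Cd28 and Icos. Of these 4, 3 rose steeply in tumor and 1, Cd27, was not called. The 250 bases before the start annotated in RefSeq are shown 5′ to 3′ on the gene's strand, with every motif match in capitals. Tnfrsf9 has 2 annotated starts, and the downstream one, whose window holds more motif matches, is shown, at chr4:150927749-150927998. The Tnfrsf4 window is chr4:156013445-156013694, the Tnfrsf18 window is chr4:156026072-156026321 and the Cd27 window is chr6:125237028-125237277. These starts differ from those of the GENCODE spans above. The Tnfrsf18 window lies partly and the Tnfrsf9 window wholly inside the GENCODE span, and the Tnfrsf4 and Cd27 windows stop short of theirs.
Tnfrsf9: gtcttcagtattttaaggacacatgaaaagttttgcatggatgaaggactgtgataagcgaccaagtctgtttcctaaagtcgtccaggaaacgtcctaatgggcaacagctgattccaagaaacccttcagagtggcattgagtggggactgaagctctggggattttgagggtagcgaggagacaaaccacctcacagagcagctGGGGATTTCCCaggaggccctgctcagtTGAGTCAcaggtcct
Tnfrsf4: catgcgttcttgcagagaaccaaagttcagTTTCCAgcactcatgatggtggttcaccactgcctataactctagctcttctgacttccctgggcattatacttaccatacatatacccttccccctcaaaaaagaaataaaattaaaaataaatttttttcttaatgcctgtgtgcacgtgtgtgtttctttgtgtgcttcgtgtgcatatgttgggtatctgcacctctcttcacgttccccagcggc
Tnfrsf18: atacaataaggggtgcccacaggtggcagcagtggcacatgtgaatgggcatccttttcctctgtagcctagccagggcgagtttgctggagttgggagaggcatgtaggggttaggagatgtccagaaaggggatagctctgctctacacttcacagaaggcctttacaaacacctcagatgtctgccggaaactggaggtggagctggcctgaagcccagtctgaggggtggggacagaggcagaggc
Cd27: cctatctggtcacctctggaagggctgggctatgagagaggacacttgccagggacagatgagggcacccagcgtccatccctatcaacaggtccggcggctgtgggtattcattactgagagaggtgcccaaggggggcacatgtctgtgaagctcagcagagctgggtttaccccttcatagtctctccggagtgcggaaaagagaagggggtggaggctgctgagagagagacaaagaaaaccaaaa

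Both strands were searched for the kappaB consensus of NF-kB, the AP-1 motif TGANTCA, the cyclic AMP response element TGACGTCA and the NFAT core TGGAAA. The Tnfrsf9 window holds a pair of overlapping kappaB matches, together spanning 43 to 33 bases before the start, and an AP-1 match 15 to 9 bases before it. Of 32851 promoter windows of the same length, 7.25% hold a kappaB match and 6.75% an AP-1 match. The capitals in the Tnfrsf4 window are an NFAT core on the minus strand, a match that 18.6% of windows hold, and the window of the upstream Tnfrsf9 start (chr4:150919905-150920154) holds 1 NFAT core and no other match. The response element, held by 1.55% of windows, was in none of the members' windows, and the Tnfrsf18 and Cd27 windows hold no match at all. These are matches of letters in short windows and not mapped binding sites.

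**Figure D1:**
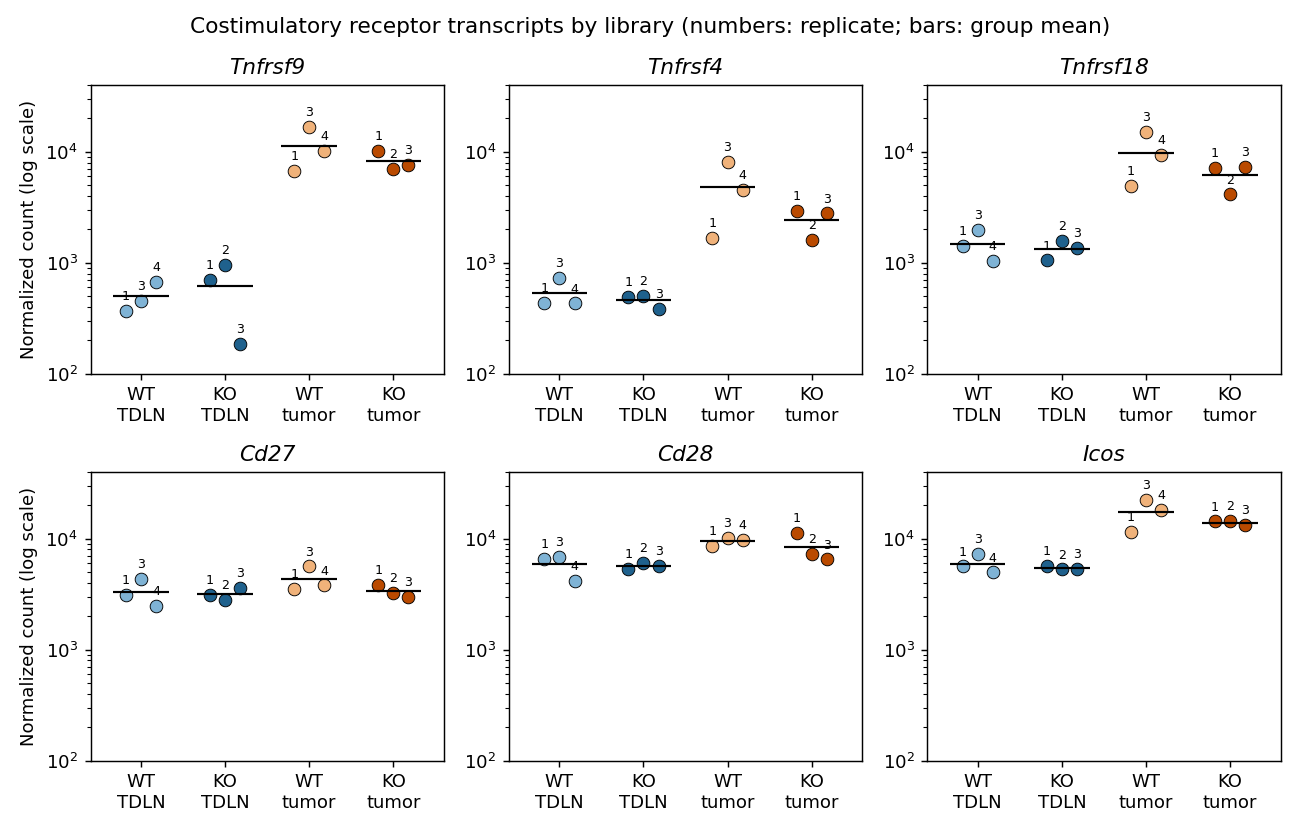
Normalized counts (log axis) of the 6 costimulatory receptors in each of the 12 libraries, with 1 point per library, marked with its replicate number, and a bar at each group mean. Within each genotype the tumor and TDLN libraries separate for every member but Cd27, most for Tnfrsf9 and least for Cd28.

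Values are normalized counts, that is, reads per gene divided by 1 scale factor per library. Differences between tissues are on the scale of log2(normalized count + 24.9), where 24.9 is 1 CPM (counts scaled to the library total) of the mean column total. They come from limma fitted to all 12 libraries, with Benjamini-Hochberg adjustment over 16065 genes and a threshold of 0.05. In bulk libraries, fewer cells of a type and less RNA per cell cannot be told apart.

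Of the 6 receptors, 5 were higher in tumor than in TDLN in WT and 4 of 6 in KO, and none was lower. The background was 15.9% of all genes higher and 10.9% lower in WT, and 18.1% higher and 12.6% lower in KO. The median log2 difference of the members was 2.05 in WT and 1.76 in KO, where the median over all genes was 0.05 in both. The libraries of the tissues did not overlap for 5 of the 6 members in each genotype, with tumor higher, as for 22.8% of all genes in WT and 27.5% in KO. The inducible TNF receptors and ICOS differed most, and the receptors known from resting T cells, CD27 and CD28, differed least.

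Tnfrsf9, which encodes 4-1BB, a receptor that supports CD8 T-cell survival and expansion, rose most. It stood at 369.8, 457.5 and 676.8 normalized counts in WT TDLN and at 6717, 16785 and 10162 in WT tumor. In KO it stood at 705.6, 949.4 and 187.2 in TDLN and at 10098, 6953 and 7614 in tumor. Every tumor library lay above every TDLN library, and within TDLN the KO libraries held both the highest and the lowest value. The group means were 501.3 ± 158.1 (SD, n = 3) and 11221 ± 5117 in WT, and 614.1 ± 389.2 and 8222 ± 1658 in KO. Tnfrsf9 was 20.5-fold higher in WT tumor (log2 4.36, SE 0.49, 95% interval 3.31 to 5.41, limma adjusted p = 6.62e-05). In KO it was 15.3-fold higher (log2 3.93, SE 0.49, 95% interval 2.88 to 4.99, limma adjusted p = 0.000117). Without KO TDLN 3, the lowest library, the KO difference was log2 3.27 (adjusted p = 0.000137).

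Tnfrsf4 encodes OX40, a receptor best known from activated CD4 T cells. Its normalized counts were 435.4, 736.2 and 430.8 in WT TDLN and 1683, 8126 and 4507 in WT tumor. In KO they were 493.6, 499.3 and 386.0 in TDLN and 2920, 1616 and 2781 in tumor. The tissues did not overlap, and the WT tumor libraries spread the most of the 4 groups, from the value of WT tumor 1, close to the lowest KO tumor library, to that of WT tumor 3. The difference was 7.34-fold in WT (log2 2.88, SE 0.45, limma adjusted p = 0.000748) and 4.95-fold in KO (log2 2.31, SE 0.45, limma adjusted p = 0.00257). The WT difference was log2 2.36 without WT tumor 3, the highest library, and log2 3.49 without WT tumor 1, the lowest tumor library of WT, and it was called in both cases (adjusted p = 0.00141 and 3e-05).

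Tnfrsf18, its neighbour on chromosome 4, encodes GITR, which is also abundant on regulatory T cells. Its normalized counts were 1430, 1987 and 1033 in WT TDLN and 4890, 15172 and 9322 in WT tumor. In KO they were 1052, 1581 and 1366 in TDLN and 7110, 4136 and 7276 in tumor. WT tumor 3 was again the highest library, KO tumor 2 the lowest tumor library, and no TDLN library reached a tumor library. Tnfrsf18 was 6.09-fold higher in WT tumor (log2 2.61, SE 0.37, limma adjusted p = 0.000408) and 4.48-fold higher in KO tumor (log2 2.16, SE 0.37, limma adjusted p = 0.00122). Gm16008, an antisense gene across the whole of Tnfrsf18, stood at 56.1 ± 19.1 normalized counts in WT TDLN and 308.1 ± 144.7 in WT tumor, and at 47.8 ± 4.42 and 173.8 ± 73.2 in KO. The library kit keeps strand, but whether the counting used strand is not given in the sources used here, so reads of the 2 genes may not be separated. Opposite-strand genes also overlap the spans of Tnfrsf9 (Camta1) and Cd27 (Vamp1). Camta1 had group means of 597.0 and 770.7 normalized counts in WT and KO TDLN and 816.1 and 689.8 in tumor. Those of Vamp1 were at most 172.5. Gm37039, which overlaps Icos on the same strand, had group means of at most 43.9.

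Cd27, the TNF receptor of resting and memory T cells, did not pass the test in either genotype. Its normalized counts were 3096, 4312 and 2458 in WT TDLN and 3523, 5617 and 3784 in WT tumor. In KO they were 3094, 2823 and 3563 in TDLN and 3852, 3221 and 2970 in tumor. Tumor and TDLN libraries overlapped in both genotypes, and the highest value in each tissue came from a WT library, replicate 3. The difference was log2 0.39 in WT (SE 0.23, 95% interval -0.10 to 0.89, limma adjusted p = 0.222) and log2 0.08 in KO (SE 0.23, 95% interval -0.42 to 0.58, limma adjusted p = 0.816). The upper bounds of both intervals lie below the lower bounds for Tnfrsf9, Tnfrsf4 and Tnfrsf18 in the same genotype, which were at least 1.79 in WT and 1.33 in KO.

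Cd28, the receptor that primes naive T cells, was moderately higher in tumor. Its normalized counts were 6608, 6825 and 4117 in WT TDLN and 8556, 10044 and 9784 in WT tumor. In KO they were 5302, 6040 and 5681 in TDLN and 11223, 7262 and 6477 in tumor. Every tumor library lay above every TDLN library of its genotype, although the lowest KO tumor library fell below the higher WT TDLN libraries. The difference was 1.65-fold in WT (log2 0.72, SE 0.23, 95% interval 0.23 to 1.22, limma adjusted p = 0.0331). In KO it was 1.42-fold and not called (log2 0.51, SE 0.23, 95% interval 0.02 to 1.00, limma adjusted p = 0.106). The WT call is fragile, since it held in 14 of 23 alternative settings and was lost without WT TDLN 4 (log2 0.49, adjusted p = 0.137), without WT tumor 3 (0.68, adjusted p = 0.0644) or without WT tumor 4 (0.70, adjusted p = 0.0863). Over all these settings its adjusted p lay between 0.0177 and 0.945 in WT, and between 0.0489 and 0.527 in KO. That Cd28 was called in WT and not in KO does not show that the genotypes differ; the test of that difference is given below.

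Icos, the inducible member of the CD28 family, rose in both genotypes. Its normalized counts were 5613, 7279 and 4950 in WT TDLN and 11382, 22432 and 18061 in WT tumor. In KO they were 5623, 5272 and 5363 in TDLN and 14248, 14294 and 13241 in tumor. The tissues did not overlap, and the KO libraries lay close together in both tissues while those of WT tumor spread more, with WT tumor 3 again the highest. Icos was 2.83-fold higher in WT tumor (log2 1.5, SE 0.22, 95% interval 1.03 to 1.97, limma adjusted p = 0.000452). In KO it was 2.56-fold higher (log2 1.36, SE 0.22, 95% interval 0.88 to 1.83, limma adjusted p = 0.000775). Tnfrsf9, Tnfrsf4, Tnfrsf18 and Icos were called in all 23 alternative settings in both genotypes, and Cd27 in none.

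**Figure D2:**
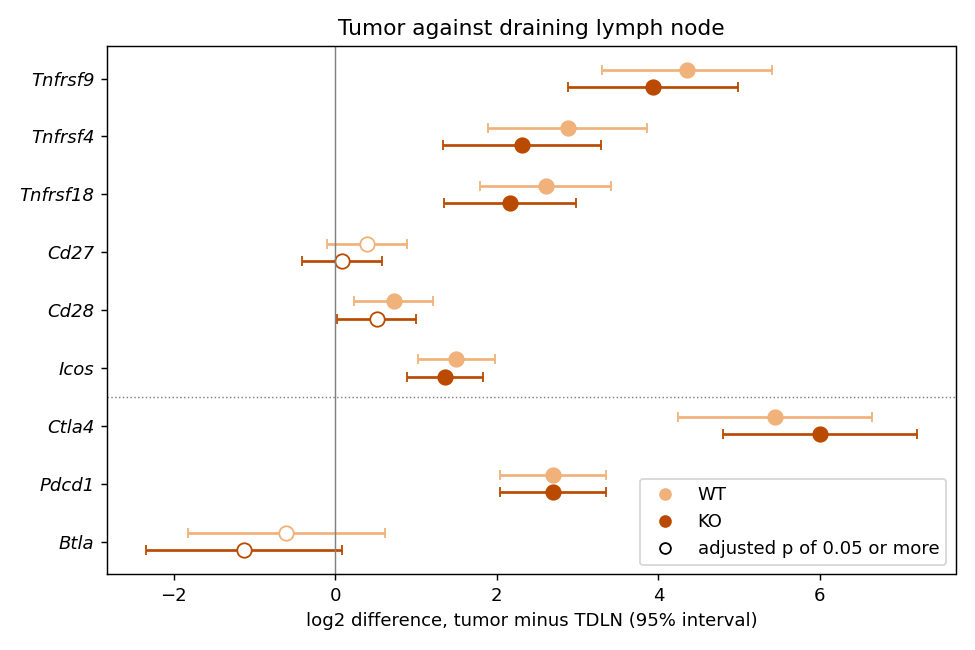
Log2 difference between tumor and TDLN for each receptor, and below the dotted line for the inhibitory genes Ctla4, Pdcd1 and Btla, in WT and KO with 95% intervals from limma (open circles, adjusted p of 0.05 or more; the line at 0 marks no difference). Tnfrsf9 stands at 4.36 in WT and 3.93 in KO, Tnfrsf4, Tnfrsf18 and Icos lie between 1.36 and 2.88, and of the 6 receptors only Cd27 has intervals that include 0.

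Per kilobase of merged exons, the order of the receptors differed between the tissues. In WT TDLN Icos led with 1734 ± 349.8 normalized counts per kb, followed by Cd27 (1413 ± 404.4), Tnfrsf18 (973.2 ± 314.4), Cd28 (955.6 ± 245.8), Tnfrsf4 (391.3 ± 128.2) and Tnfrsf9 (184.2 ± 58.1). In KO TDLN the order was Icos (1580 ± 53.2), Cd27 (1357 ± 160.9), Cd28 (926.9 ± 60.3), Tnfrsf18 (874.9 ± 174.5), Tnfrsf4 (336.7 ± 46.8) and Tnfrsf9 (225.6 ± 143.0). Among neighbours in these orders, the SD ranges of Tnfrsf18 and Cd28 overlapped in both genotypes. So did those of Icos with Cd27 and of Cd27 with Tnfrsf18 in WT, and of Tnfrsf4 with Tnfrsf9 in KO.

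In tumor the inducible receptors led and Cd27 and Cd28 came last. In WT tumor Tnfrsf18 stood at 6427 ± 3384 normalized counts per kb, Icos at 5041 ± 1622, Tnfrsf9 at 4122 ± 1880, Tnfrsf4 at 3496 ± 2366, Cd27 at 1851 ± 490.1 and Cd28 at 1545 ± 129.9. In KO tumor the order was Icos (4060 ± 173.5), Tnfrsf18 (4051 ± 1159), Tnfrsf9 (3020 ± 609.2), Tnfrsf4 (1787 ± 524.4), Cd27 (1438 ± 195.2) and Cd28 (1359 ± 415.5). In WT tumor the SD ranges of all neighbours in the order overlapped. In KO tumor the same held except between Tnfrsf9 and Tnfrsf4. Tnfrsf9 was thus the lowest member per kb in TDLN and the third in tumor in both genotypes.

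**Figure D3:**
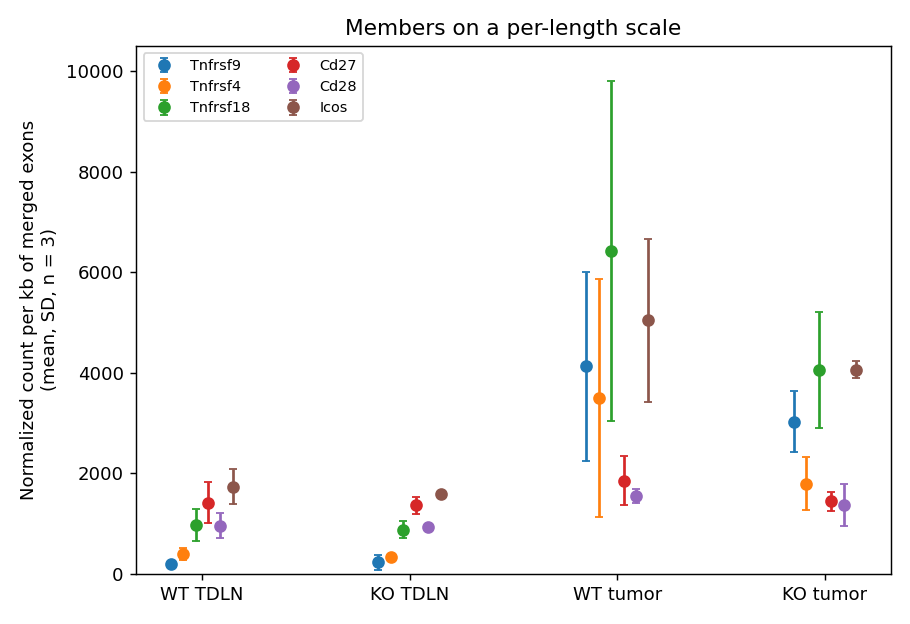
Mean normalized counts per kb of merged exons (linear axis) of the 6 receptors in each group, with SD bars over 3 libraries. Icos, Cd27, Cd28 and Tnfrsf18 hold the highest TDLN values, and in tumor Tnfrsf18, Icos and Tnfrsf9 stand above Cd27 and Cd28.

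A ratio of 2 receptors within a library does not depend on how libraries were scaled, so all 15 ratios between members were compared between tissues, a comparison added after the data had been seen. The exact permutation test, two-sided with tissue labels permuted within genotype, can give no p below 0.005, and p-values were adjusted over the 15 ratios. Tnfrsf9 rose relative to each of the other 5 members, from log2 1.57 relative to Tnfrsf4 to 3.99 relative to Cd27 (each with exact p = 0.005, the smallest possible, adjusted p = 0.00625), and the tissues did not overlap in any of the 5 ratios. Tnfrsf4 to Cd27 rose by log2 2.41 and Tnfrsf18 to Cd27 by 2.17, with the same p. Within the CD28 family, Cd28 fell by 0.81 relative to Icos on the log2 scale, from between -0.27 and 0.24 in TDLN to between -1.16 and -0.34 in tumor (exact p = 0.005, adjusted p = 0.00625). Cd27 fell by 0.38 relative to Cd28 on the log2 scale (exact p = 0.02, adjusted p = 0.0214), with overlapping tissues.

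The neighbours Tnfrsf4 and Tnfrsf18 gave the smallest difference of the 15. Their log2 ratio lay between -1.82 and -1.09 in TDLN and between -1.54 and -0.90 in tumor, a difference of 0.25 (exact p = 0.155), which ranged from 0.17 to 0.35 when single libraries were left out. A p of this size does not show that the genes rose by the same factor. In all, 14 of the 15 ratios differed at an adjusted p under 0.05, and 12 did not overlap between tissues. The ratios share the same members and are not independent, so this count restates the unlike tissue differences of the members. No share over other gene pairs was computed to set beside it.

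CD28 and CTLA-4 compete for CD80 and CD86, and Ctla4 rose far more than Cd28. Ctla4 stood at 96.0, 509.5 and 50.8 normalized counts in WT TDLN and at 6600, 6221 and 9791 in WT tumor. In KO it stood at 82.8, 76.7 and 130.6 in TDLN and at 10694, 7951 and 5221 in tumor. WT TDLN 3 held several times more Ctla4 than the other TDLN libraries, yet remained far below every tumor library. Ctla4 was 43.6-fold higher in WT tumor (log2 5.45, limma adjusted p = 3.38e-05) and 64.1-fold higher in KO tumor (log2 6.0, limma adjusted p = 1.15e-05). The log2 ratio of Cd28 to Ctla4 was 6.11, 3.74 and 6.34 in WT TDLN and 6.0, 6.30 and 5.44 in KO TDLN. In tumor the WT libraries gave 0.37, 0.69 and -0.00094 and the KO libraries 0.07, -0.13 and 0.31. Every tumor library lay below every TDLN library, and WT TDLN 3, the library with the most Ctla4 of the TDLN, was the lowest of the 6 TDLN libraries. The ratio is of counts not divided by length, and the merged exons of Cd28 (6.12 kb) are longer than those of Ctla4 (2.33 kb), so only its change between tissues is read. The ratio fell by 5.44 on the log2 scale (exact permutation p = 0.005, two-sided, the smallest that 400 permutations within genotype allow). The processed pseudogene Rpl18-ps1 lies within Ctla4 on the same strand and stood at means of 7092 to 8558 normalized counts in the 4 groups, with a row of its own.

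**Figure D4:**
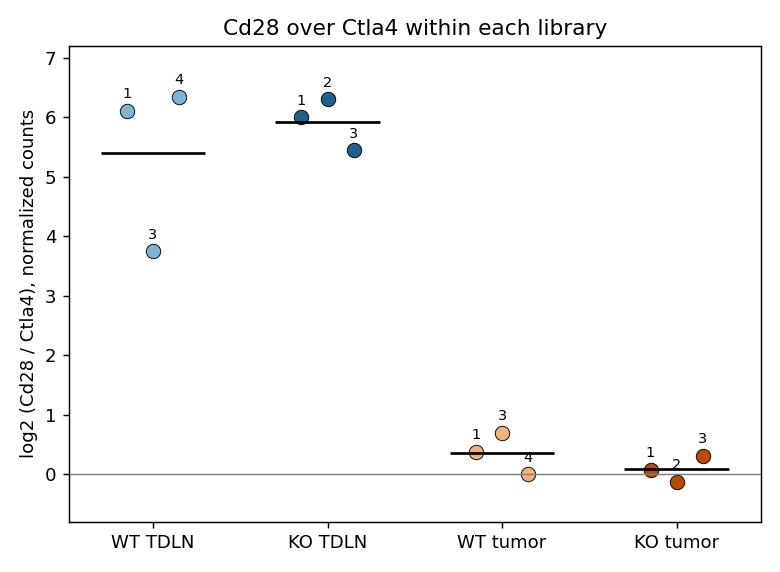
Log2 ratio of Cd28 to Ctla4 normalized counts in each library, with a bar at each group mean; the line at 0 marks equal counts before any division by length. The 6 TDLN libraries lie between 3.74 and 6.34 and the 6 tumor libraries between -0.13 and 0.69.

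Within the tumor, KO libraries were set against WT libraries to see whether the receptors differ where TrIP is labelled as deleted. None of the 6 members passed the test and none had an unadjusted p under 0.05. The genotypes overlapped for all 6, beside 7.48% of all genes without overlap, a share too small to make 6 overlaps unusual. The background was 0% of genes called by limma, with 0 of 16065 at an adjusted p under 0.05 and 1004 (6.25%) at an unadjusted p under 0.05. The log2 differences of KO minus WT were -0.37 for Tnfrsf9 (SE 0.49, 95% interval -1.42 to 0.69), -0.74 for Tnfrsf4 (SE 0.45, -1.72 to 0.24) and -0.56 for Tnfrsf18 (SE 0.37, -1.38 to 0.25). They were -0.34 for Cd27 (SE 0.23, -0.84 to 0.16), -0.22 for Cd28 (SE 0.23, -0.71 to 0.27) and -0.26 for Icos (SE 0.22, -0.73 to 0.22). The limma adjusted p-values lay between 0.810 for Tnfrsf4 and 0.883 for Tnfrsf9. The intervals are wide enough to hold more than a halving of Tnfrsf9, Tnfrsf4 or Tnfrsf18. Each SE comes from 1 spread per gene shared by all 4 groups. The median residual SD over genes was 0.42 in tumor and 0.27 in TDLN (log2). For many genes the tumor intervals may thus be too narrow and those in TDLN too wide.

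All 6 point estimates were below 0, as were 48.1% of those of all genes, and the member median was -0.35. Of 12 CD8 T-cell identity genes only 1 was above 0 in this comparison, with a median of -0.34. All 15 macrophage and monocyte genes were above 0, with a median of 0.56, and no gene of either list was called. The part of these shifts in the receptor estimates was not tested. The library WT tumor 3 was the highest of the 6 tumor libraries for 5 members, all but Cd28, as it was for 23.4% of all genes, and it was also the deepest library of the 12, at an estimated 36.9 M reads. Without it the differences shrank to -0.03 for Tnfrsf9, -0.22 for Tnfrsf4, -0.17 for Tnfrsf18, -0.13 for Cd27, -0.18 for Cd28 and -0.04 for Icos, with a median of -0.15. Leaving out WT tumor 1 instead moved them away from 0, to -0.68 for Tnfrsf9, -1.35 for Tnfrsf4, -0.99 for Tnfrsf18, -0.47 for Cd27, -0.29 for Cd28 and -0.53 for Icos, with a median of -0.61, and none was called (adjusted p from 0.181 for Tnfrsf4 to 0.743 for Cd28). The size of these differences thus rests on single tumor libraries in both directions. KO libraries matter as well, since the member median was -0.49 without KO tumor 1. For Cd28 the difference ranged from -0.46 to -0.064 when single libraries were left out, beyond the values above on both sides. With columns rescaled to the summed CD3 chain genes, only 2 of the 6 remained below 0 and the median was 0.04, beside an all-gene median of 0.36. The CD3 sums were 58997 to 61054 normalized counts in WT tumor and 42219 to 50729 in KO tumor, and the part of this difference in the result was not tested.

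In TDLN the genotypes also overlapped for every member, beside 6.35% of all genes without overlap, and none passed the test. The log2 differences of KO minus WT were 0.06 for Tnfrsf9, -0.17 for Tnfrsf4, -0.12 for Tnfrsf18, -0.03 for Cd27, -0.01 for Cd28 and -0.12 for Icos, each with a limma adjusted p of 1. Here too limma called 0% of all genes, and 123 genes (0.766%) had an unadjusted p under 0.05. The part of the spread shared with the tumor groups in this low share was not tested. WT TDLN 3 was the highest TDLN library for 5 members, all but Tnfrsf9, and for 25.7% of all genes. Without it none of the 6 differences was below 0. Without KO TDLN 3 the Tnfrsf9 difference was 0.72, with a limma adjusted p of 1.

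The interaction asks whether the genotype difference in tumor differed from that in TDLN. It was log2 -0.42 for Tnfrsf9, -0.57 for Tnfrsf4, -0.44 for Tnfrsf18, -0.31 for Cd27, -0.21 for Cd28 and -0.14 for Icos. None passed the test (limma adjusted p = 1 for each), limma called 0% of all genes, and 465 genes (2.89%) had an unadjusted p under 0.05. Without KO TDLN 3 the interaction was -1.09 for Tnfrsf9, and without WT tumor 1 it was -1.18 for Tnfrsf4, and neither was called. The Cd28 value is the test of the difference between its WT and KO tissue effects.

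**Figure D5:**
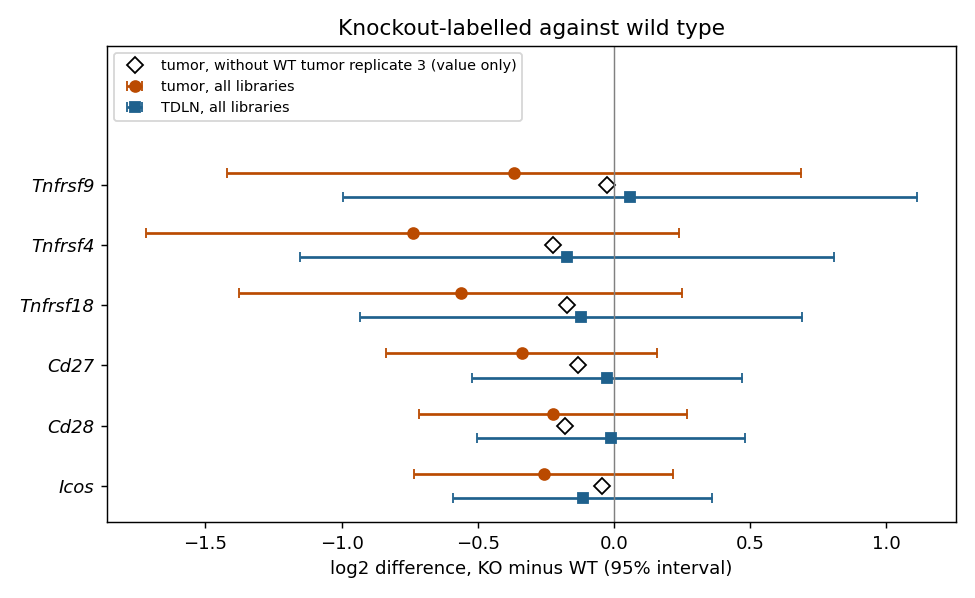
Log2 difference of KO minus WT for each receptor in tumor and in TDLN, with 95% intervals from limma, and diamonds for the tumor values without WT tumor 3, shown with no interval. Every interval includes 0, and the tumor estimate of every receptor moves toward 0 without that library.

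The ligands of the receptors are known mainly from antigen-presenting cells. Of 7 ligand genes, 5 passed the filter on low values, and 1 was called in WT and none in KO. Cd86, which encodes a ligand of CD28 and CTLA-4, was called in WT (325.0 ± 317.0 normalized counts in TDLN and 1105 ± 349.8 in tumor, log2 2.02, limma adjusted p = 0.0187) and not in KO (385.2 ± 291.8 and 851.0 ± 88.2, log2 1.31, limma adjusted p = 0.0929). Cd86 is also a gene of macrophages, whose summed markers were higher in tumor as given below, and their part in its difference was not tested. Cd80, the other such ligand, had differences of log2 0.79 in WT and 0.39 in KO and was not called. The ligands of the TNF receptor members were not called either. Tnfsf9, which encodes 4-1BB ligand, differed by log2 0.57 in WT and 0.75 in KO. Tnfsf4, which encodes OX40 ligand, differed by log2 0.13 and 0.70, and Cd70, the ligand of CD27, by 0.69 and 1.11, with group means of at most 120.9 normalized counts for either gene. Tnfsf18, which encodes GITR ligand, and Icosl, which encodes ICOS ligand, were below the filter, with group means of at most 10.6 and 28.2 normalized counts. The median ligand difference was log2 0.69 in WT, the value of Cd70, and 0.75 in KO, the value of Tnfsf9, beside 0.05 for all genes. From lowest to highest, Cd70 stood at 6.06, 6.50 and 34.1 normalized counts in WT TDLN and at 1.03, 1.06 and 332.7 in WT tumor. Its WT difference thus rests on 1 tumor library.

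Of the 3 inhibitory CD28 family genes, Ctla4 and Pdcd1 were higher in tumor in both genotypes and Btla was not called. Pdcd1, which encodes PD-1, stood at 803.9 ± 379.2 normalized counts in WT TDLN and 4997 ± 255.6 in WT tumor (log2 2.70, limma adjusted p = 6.76e-05), and at 605.4 ± 194.6 and 3936 ± 528.4 in KO (log2 2.69, limma adjusted p = 5.49e-05). Btla, which encodes an inhibitory receptor of resting lymphocytes, had differences of log2 -0.61 in WT and -1.13 in KO.

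Among 17 other TNF receptor superfamily genes tested, 5 were higher in tumor and 3 lower in WT, and 4 were higher and 2 lower in KO. The medians were log2 0.63 and 0.57. Tnfrsf12a, which encodes the TWEAK receptor and is also known from fibroblasts, rose from 12.9 ± 7.40 normalized counts in WT TDLN to 515.5 ± 55.1 in WT tumor (log2 3.85 in WT, 3.57 in KO). Stromal and macrophage markers were also higher in tumor, with the values given below, and their part in this difference was not tested. Tnfrsf1a, which encodes TNF receptor 1, rose by log2 1.07 in WT and 2.32 in KO. Tnfrsf13c, which encodes the BAFF receptor of B cells, fell by 3.00 in WT and by 2.00 in KO on the log2 scale, beside summed B cell markers of 0.0226% to 0.0447% of all values in TDLN and 0.00283% to 0.00970% in tumor. Tnfrsf26 fell by 2.39 in WT and by 1.53 in KO on the log2 scale.

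The TRAF and noncanonical NF-kB list, which holds the adaptors below the TNF receptor members, had 7 of 16 genes higher and 2 lower in WT, and 5 higher and 1 lower in KO. Tnfaip3, which encodes A20, an inhibitor of NF-kB signaling that NF-kB itself induces, rose from 233.2 ± 60.0 normalized counts in WT TDLN to 9752 ± 3624 in WT tumor (log2 5.20 in WT, 5.57 in KO). Nfkb2, which encodes p100, the precursor of the noncanonical p52 subunit, rose by log2 2.03 in WT and 2.45 in KO. Relb, which encodes the partner of p52, rose by log2 1.56 and 1.49, although its WT tumor and TDLN libraries overlapped. Tradd, which encodes an adaptor of TNF receptor 1, fell by 1.55 in WT and by 1.49 in KO on the log2 scale. The list medians were log2 0.52 and 0.43.

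The list of genes just below CD28 and ICOS had 6 of 21 genes higher and 2 lower in WT, and 5 higher and 0 lower in KO, with medians of log2 0.15 and 0.09. Malt1, which encodes a protease that links antigen receptor and CD28 signals to NF-kB, rose by log2 1.60 in WT and 1.43 in KO. Pik3r1, which encodes the p85 alpha regulatory subunit of PI3K, rose by log2 0.80 in WT and 1.42 in KO, and Pik3cb, which encodes the p110 beta catalytic subunit, by 1.39 and 2.39.

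Of 12 survival and growth genes linked to costimulation, 6 were higher and 1 was lower in tumor in both genotypes, with medians of log2 1.11 and 1.19. Bcl2l11, which encodes the death-promoting protein BIM, rose from 287.8 ± 193.8 normalized counts in WT TDLN to 2601 ± 485.7 in WT tumor (log2 3.24 in WT, 3.68 in KO). Bcl2a1b and Bcl2a1a, which encode the survival protein A1, rose by log2 2.43 and 2.27 in WT and by 2.03 and 2.00 in KO; they are near-identical copies whose reads the counting could split, so their separate values are uncertain. Birc5, which encodes survivin, a protein of dividing cells, fell by 2.49 in WT and by 1.83 in KO on the log2 scale. Its level in WT tumor was 4503 ± 4301 normalized counts, so the libraries of that group differed widely.

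Other costimulatory and adhesion receptors were evenly divided, with 5 of 18 higher and 5 lower in each genotype and medians of log2 0.27 and 0.22. Cd81, which encodes a tetraspanin, rose by log2 1.94 in WT and 3.22 in KO, and Icam1, which encodes the ligand of LFA-1, by 1.84 and 1.2. Cd7 fell from 7829 ± 1575 normalized counts in WT TDLN to 1399 ± 1786 in WT tumor (log2 -3.30 in WT, -3.87 in KO). Slamf6, which encodes a receptor known from progenitor-like CD8 T cells, fell by 2.5 on the log2 scale in WT and was not called in KO (log2 -2.19, limma adjusted p = 0.0506). From lowest to highest, Slamf6 stood at 73.2, 1278 and 1472 normalized counts in WT tumor and at 553.1, 669.9 and 893.0 in KO tumor. The size of its WT fall thus depends on 1 low library. No gene of these lists was called in the comparisons of genotypes or in the interaction.

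Over the 12 libraries, each member's nearest genes were found by Pearson r of log2 values among 9575 genes with a mean of at least 100 normalized counts. These r are descriptions, since the libraries fall into 2 tissues and share their scaling, so the r of deviations from group means is given beside each. The genes were picked by r over the same 12 libraries, so the r of deviations is not an independent check. A group with a wide spread weighs most in it, such as WT tumor, where Tnfrsf4 ranged from 1683 to 8126 normalized counts and Gadd45b from 1354 to 11869. Tnfrsf4 and Tnfrsf18 were among each other's nearest 3 (r = 0.988, deviations 0.914). For Tnfrsf18 the nearest were Il1r2, a decoy receptor for interleukin-1 (0.991, deviations 0.932), and Plscr1, a phospholipid scramblase (0.988, deviations 0.910). For Tnfrsf4 the others were Crabp2, a retinoic acid binding protein (0.985, deviations 0.922), and Ptprs, a receptor phosphatase (0.983, deviations 0.951).

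For Tnfrsf9 the nearest genes were the sulfotransferase Sult2b1 (0.984, deviations 0.816), the amino acid transporter Slc38a2 (0.984, deviations 0.879) and the serpin Serpinb6b (0.978, deviations 0.710). For Icos they were the histone demethylase Kdm6b (0.990, deviations 0.921), Gadd45b (0.987, deviations 0.916) and the NF-kB inhibitor Nfkbia (0.987, deviations 0.920). For Cd28 they were Entpd7 (0.930, deviations 0.810), Cflar, which encodes the caspase-8 inhibitor c-FLIP (0.927, deviations 0.795), and the inhibitory receptor Lag3 (0.924, deviations 0.788). For Cd27 they were Cd8a (0.918, deviations 0.949), the proteasome activator Psme1 (0.894, deviations 0.903) and H2-T23, which encodes Qa-1 (0.893, deviations 0.861). Among the members, the deviations of Tnfrsf9 had r = -0.02 with those of Cd27, 0.05 with Cd28 and 0.55 with Tnfrsf4, and those of Icos had r = 0.88 with Tnfrsf4.

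Libraries held 22113970 to 26490590 normalized counts, from an estimated 18.3 to 36.9 M reads in genes. Of the defining markers, Cd8a and Cd4 fit the CD8 label, since Cd8a was at least 12566 normalized counts and Cd4 at most 23.6 in every library. The summed CD8 T-cell identity genes took 0.412% to 0.730% of all values in TDLN, 0.535% to 0.670% in WT tumor and 0.429% to 0.451% in KO tumor, with 4 of 12 genes higher and 1 lower in WT tumor and 2 higher and 3 lower in KO tumor. Foxp3, the defining gene of regulatory T cells, which express Tnfrsf4 and Tnfrsf18 strongly, stood at 9.22 to 57.8 normalized counts in TDLN and 19.8 to 124.1 in tumor. Of 8 tested genes of the CD4 and regulatory T-cell list, 4 were higher in tumor in WT and 3 in KO, with summed levels of 0.00983% to 0.0254% of all values in TDLN and 0.0212% to 0.0472% in tumor. Macrophage and monocyte markers moved with tissue as well, with 14 of 15 higher in WT tumor and all 15 in KO tumor. Their summed level was 0.000974% to 0.00291% of all values in TDLN, 0.05% to 0.131% in WT tumor and 0.104% to 0.236% in KO tumor, and the defining gene Csf1r was at most 4.39 normalized counts in TDLN and at least 383.4 in tumor. Lyz2, another gene of this list, stood at 0 to 50.4 normalized counts in TDLN and 3132 to 30096 in tumor. In KO tumor 2, its highest library, Lyz2 exceeded Cd8a (18065). Stromal genes also rose, with 4 of 6 tested genes of the tumor epithelium and stroma list higher in WT tumor and 3 in KO tumor. That list summed to 0.000636% to 0.00235% of all values in TDLN and 0.0194% to 0.0619% in 5 of the 6 tumor libraries, and WT tumor 4 stood apart at 0.129%. The collagen gene Col3a1 was at 0 in every TDLN library and at least 2466 normalized counts in every tumor library, whereas the epithelial gene Epcam was at most 74.9 in any library.

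Of the NK cell list, 1 of 5 tested genes was higher in tumor in each genotype, and that gene was Klra4, which encodes a receptor of the Ly49 family. Klra4 had group means of 5.54 and 1.87 normalized counts in WT and KO TDLN and 541.7 and 968.7 in tumor. The NK sums were 0.00231% to 0.00916% of all values in TDLN, 0.00352% to 0.00735% in WT tumor and 0.00918% to 0.0109% in KO tumor. Ncr1, the defining gene of NK cells, was at most 14.9 normalized counts in any library and at 0 in every KO library. Of the dendritic cell list, 3 of 5 tested genes were higher in tumor in each genotype, with sums of 0.00508% to 0.0135% in TDLN and 0.00460% to 0.0288% in tumor. Of 8 tested B cell genes, 7 were lower in WT tumor and all 8 in KO tumor. No gene of the neutrophil list passed the filter on low values, and its sum was at most 0.000478%. The part of these markers in the receptor differences was not tested.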

How the data were processed

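RNA of sorted CD8 T cells was sequenced with a stranded polyA mRNA kit, per the labels' protocols, in 12 libraries grouped by the tissue and genotype in their titles. The signal values are normalized counts that the authors exported from Partek, per the file headers; the values show 1 scale factor per library. Of the values under 50 reads, 87.0% to 89.6% per library were whole to within 0.01 reads, so no count model was used. Builds GRCm38 and GRCm39 are named, per the submitters' processing notes, without their roles, with aligner and quantifier not given in the sources used here. Depth was an estimated 18.3 to 36.9 M reads.

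The 16065 of 26962 genes whose mean reached 1 CPM were tested with limma 3.58.1 (R 4.3.3) on log2(normalized count + 1 CPM, that is 24.9), with 1 mean per group, an intensity trend, two-sided tests, Benjamini-Hochberg adjustment over all genes kept and a threshold of 0.05. The fit had 8 residual and 4.47 prior degrees of freedom and was checked on simulated data. Within-library ratios were tested by exact permutation. Named genes are the members, the ligands, the inhibitory CD28 family genes, Pik3ip1, up to 4 called genes by size from each list, and the 3 genes most like each member. A gene that this rule names is not reported here. The members and lists were chosen with earlier results of these data known. Replicate numbers are shared between groups, but no label ties a number to 1 mouse; libraries were not paired. Alternatives were other pseudocounts, scalings and filters, no trend, array weights, the compared groups alone, a replicate block and leaving out each library. Tnfrsf17, Ngfr, Havcr1, Tmigd2, Flt3, Siglech, Retnlg and Krt19 were not analysed here.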

Additional observations from a re-analysis of the deposited data

How the results depend on the processing

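Tnfrsf9, Tnfrsf4, Tnfrsf18 and Icos kept their direction and call in both genotypes under all 23 alternatives, and the counts of called members stayed at 4 or 5 of 6 in WT and 4 of 6 in KO when single libraries were left out. In WT, Cd28 lost its call with a common total (log2 0.55), quantile normalization (0.60), no filter (adjusted p = 0.0568), no trend (adjusted p = 0.0575) or the compared groups alone (adjusted p = 0.0638); in KO it was called with array weights alone (0.59, adjusted p = 0.0489). Rescaling to CD3 chain genes moved the median of all genes to -0.60 in WT and -0.22 in KO and reversed Cd27 (-0.35 in WT, -0.22 in KO) and Cd28 in WT (-0.021, adjusted p = 0.945). For KO against WT in tumor the same rescaling reversed Tnfrsf9 (0.029), Cd27 (0.054), Cd28 (0.17) and Icos (0.14), and for the interaction Tnfrsf9 (0.011), Cd27 (0.13), Cd28 (0.23) and Icos (0.30). Array weights reversed KO against WT in TDLN for Tnfrsf4 (0.055), Tnfrsf18 (0.052), Cd27 (0.094), Cd28 (0.12) and Icos (0.0054). The cause of these changes was not tested.

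Leaving out single libraries also changed signs that were never called. KO against WT in TDLN ranged from -0.38 to 0.72 for Tnfrsf9, -0.30 to 0.072 for Tnfrsf4, -0.35 to 0.11 for Tnfrsf18, -0.21 to 0.19 for Cd27, -0.24 to 0.12 for Cd28 and -0.24 to 0.039 for Icos. The interaction ranged from -1.09 to 0.011 for Tnfrsf9, -1.18 to -0.05 for Tnfrsf4, -0.45 to 0.021 for Cd28 and -0.42 to 0.073 for Icos, and Cd27 in KO from -0.024 to 0.17. The Cd28 to Ctla4 ratio ranged from -5.85 to -5.20; it was -5.04 in WT alone and -5.83 in KO alone, where the smallest exact permutation p possible is 0.1, and -5.11 with a pseudocount.

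Over all genes, limma called 4312 in WT (2560 higher, 1752 lower) and 4919 in KO (2902 higher, 2017 lower). The split became 2119 and 2522 in WT with a common total, 2165 and 2286 in WT and 2477 and 2812 in KO with quantile normalization, and 1393 and 6169 of 7562 in WT and 2073 and 3055 in KO with CD3 rescaling. Without KO TDLN 1, 3056 genes were called in KO. Between genotypes in tumor, 6 genes were called with no filter and 10 without WT tumor 1, and 1 gene in the interaction with no filter; none was a member. The replicate block called 5 members in WT and 4 in KO, with 4076 and 4647 genes, and changed no member's call. Across tissues, correlations of deviations from group means lay between -0.04 and 0.20 for same-numbered libraries. For different-numbered libraries they lay between -0.18 and 0.18. So few libraries cannot show whether a number is 1 mouse, and they were left unpaired because no label ties a number to a mouse. With 3 libraries a group and a median residual SD of 0.42 in tumor and 0.27 in TDLN (log2), differences between genotypes of the size seen could not be told from 0.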
